A study of Mus musculus with 28 samples.

Results

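Small nucleolar RNAs (snoRNAs) are short, stable RNAs of the nucleolus that guide chemical marks onto ribosomal RNA. The C/D class, named Snord in the mouse, guides methylation of ribose together with the methyltransferase fibrillarin, and the H/ACA class, named Snora, guides pseudouridylation together with dyskerin. Most mammalian snoRNAs are cut out of introns of host genes, many of which encode ribosomal proteins or translation factors, and a few, among them Snord14, Snord118 and Snora73, take part in the cleavage and folding of the rRNA precursor. In rodent cells, snoRNAs of the Rpl13a introns are known to be needed for cell death under lipotoxic and oxidative stress.

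The snoRNAs were read from 28 one-colour Affymetrix arrays of splenic dendritic cells, one array per sample. A probe set was taken where its annotation gave exactly 1 gene symbol and that symbol began with Snord or Snora and a number. This gave 51 snoRNAs of 19938 genes measured, 31 of the C/D class and 20 of the H/ACA class. Of these, 43 exceeded a log2 level of 5 on at least 3 arrays and were tested among 10452 genes, 25 of the C/D class and 18 of the H/ACA class. The other 8 (Snora2b, Snora62, Snord37, Snord42a, Snord52, Snord58b, Snord61 and Snord96a) stayed under that level on all or all but 1 or 2 arrays. By the RefSeq table, 50 of the 51 lie within the span of another gene, and Snord118, which is known to be transcribed from its own promoter, does not.

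Primary dendritic cells came from spleens of C57BL6/J wild-type (WT) mice and of GP91 Phox knockout (KO) mice, 3 months old, which lack NOX2, the catalytic subunit of the phagocyte oxidase. The groups were KO with angiotensin II (Ang II, n = 4), KO with vehicle (n = 3), WT with Ang II plus hydralazine and hydrochlorothiazide (Hyd/HCTZ, n = 6), WT with Ang II plus 2-HOBA (n = 4), WT with Ang II (n = 4) and WT with vehicle (n = 7). Ang II, a hormone peptide, constricts vessels, 2-HOBA scavenges reactive products of lipid oxidation, and hydralazine and hydrochlorothiazide lower blood pressure. Whether mice or isolated cells were treated, the doses and the sort are not stated in the labels, and the replicates are called biological in the labels.

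The sequences in this paragraph show what a C/D snoRNA carries at its end and which start sites drive the host genes whose snoRNAs are described most. No snoRNA sequence was used as such, but 1 mature miRNA of the RefSeq tables (GRCm38.p6), miR-5121 at chr7:45126925-45126945 on the minus strand, ends at the same base as Snord33 (chr7:45126864-45126945), and on the strand of the host gene Rpl13a, also minus, its 21 bases are the snoRNA's 5′ end. The capitals mark the C box core (UGAUGA), the motif that binds the C/D core proteins, which begins at base 7. The same 6 letters stood in 12 of 1738 mature miRNAs (0.69%).
miR-5121 (Snord33 5′ end): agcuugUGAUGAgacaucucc
Host genes of snoRNAs are known for start sites in a run of pyrimidines, which marks transcripts of the translation machinery. The windows run from 15 bases before to 15 bases after the annotated start, on the gene's strand, and the capitals mark the longest unbroken run of C and T on that strand. They were chosen as the hosts of the snoRNAs described most below. The first 5 each hold a snoRNA called higher with Hyd/HCTZ and the last 5 each hold at least 1 called lower.
Tpt1 (host of Snora31, chr14:75845241-75845270, +): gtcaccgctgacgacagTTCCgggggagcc
Rps12 (host of Snora33, chr10:23787195-23787224, -): taccgtcatgcggccaccgccggCCTTTTC
Eef1b2 (host of Snora41, chr1:63176816-63176845, +): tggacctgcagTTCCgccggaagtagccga
Rpl10 (host of Snora70, chrX:74270801-74270830, +): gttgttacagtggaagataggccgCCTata
Rack1 (host of Snord95, chr11:48800345-48800374, +): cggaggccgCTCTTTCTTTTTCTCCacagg
2410006H16Rik (host of Snord49a and Snord49b, chr11:62602862-62602891, +): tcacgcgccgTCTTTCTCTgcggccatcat
Snhg12 (host of Snora16a and Snora44, chr4:132308663-132308692, +): ggccgttctcagTCCTTTCTCgcttcatcc
Snhg3 (host of Snora73a and Snora73b, chr4:132353672-132353701, -): tagtcgaccacgcctgaCTTCCgggcgtta
Ncl (host of Snora75 and Snord82, chr1:86359441-86359470, -): ggCTCCggggacggacgcgagctctggttg
Rplp2 (host of Snora52, chr7:141447636-141447665, +): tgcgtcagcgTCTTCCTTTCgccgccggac
A run of 8 or more stood in 10 of the 31 host genes with a window (32.3%), against 3205 of 27025 genes of the promoter table (11.9%). In the windows printed, the run was 3 to 16 bases long among the first 5 hosts and 4 to 10 bases long among the last 5. A run is a description of the letters and not a mapped start.

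Arrays were divided into 3 sets along the first principal component of 6617 unannotated, control-like probe sets, which held 27.7% of their variance. The cuts were placed at the 2 widest gaps that left more than 1 array on either side, so the number of sets was fixed in advance. WT vehicle replicate 2 lay at -61.1 and the next array at -35.8, a wider gap than between sets 1 and 2 (-19.3 to -5.91). That gap was passed over because it left 1 array alone. Set 1 held all 7 KO arrays, WT vehicle replicates 1 to 3 and WT Ang II replicates 1 and 2. Set 2 held WT vehicle replicates 4 to 7, all 4 arrays with 2-HOBA and WT Ang II replicates 3 and 4, and set 3 held the 6 arrays with Hyd/HCTZ and no other, so that array set and Hyd/HCTZ cannot be told apart. Cybb, which encodes the targeted NOX2 subunit, lay at 6.41 to 7.18 on the KO arrays and at 8.35 or above on 20 of the WT arrays. The library labelled WT vehicle replicate 2 went against its label at 6.34 and had the lowest mean correlation with the other arrays (0.852). Several results that rest on it are therefore also given without it. Dendritic cell markers (13 measured) averaged between 7.20 and 9.08 on every array. B cell markers (7 measured) averaged between 5.78 and 9.37, with 8.10 to 9.04 in WT Ang II beside 7.67 to 8.17 for dendritic cell markers. The dendritic cell level therefore does not show that the preparations held no other cells.

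The C/D snoRNAs with the highest mean log2 level over all arrays were Snord104 (9.95), Snord49b (9.65), Snord14e (7.39), Snord82 (7.09) and Snord47 (6.95). The H/ACA snoRNAs with the highest were Snora23 (8.92), Snora52 (7.84), Snora3 (7.72), Snora44 (7.61) and Snora73b (7.56). These means only name the members with strong signal and set no member against another, since a probe set's brightness also depends on its own probes.

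Within a group, snoRNAs varied more than most genes. The median within-group SD was 0.47 for C/D snoRNAs and 0.61 for H/ACA snoRNAs, against 0.32 for all genes tested, and 88.7% and 97.1% of all genes tested lay below these medians. Without WT vehicle replicate 2 these medians were 0.43, 0.50 and 0.27, and 91.8% and 96.4% of all genes tested lay below those of the C/D and the H/ACA class. The widest members were Snora73b (SD 1.11), Snora73a (1.01), Snord73b (1.0) and Snora52 (0.995). Without that array their SDs were 0.694, 0.641, 0.520 and 0.919, and the widest were Snora52 and Snord118 (0.780). The tightest were Snord8 (0.240), Snord104 (0.338) and Snora75 (0.366). The map of levels on each array shows that the wide members of the H/ACA class moved together from array to array.

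**Figure D1:**
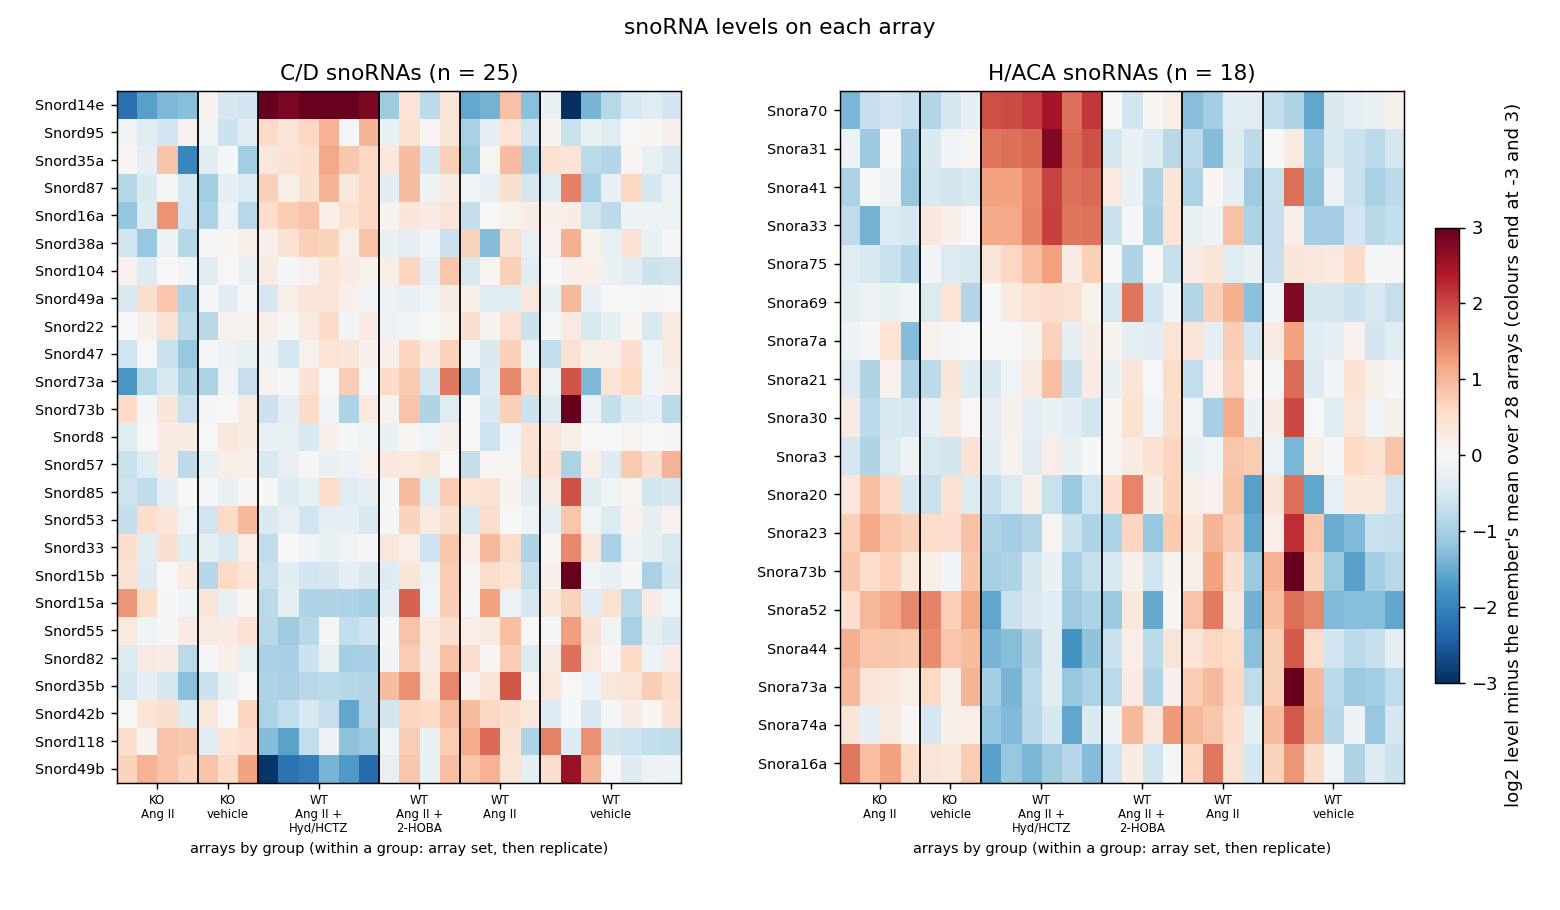
Log2 level of each of the 43 snoRNAs (rows) on each of the 28 arrays (columns, by group), minus the member's mean over all arrays, with red above and blue below that mean. A few members (Snord14e, Snora70, Snora31, Snora41, Snora33) are red on all 6 arrays with Hyd/HCTZ, while a block of H/ACA members from Snora23 down to Snora16a is mostly red on KO arrays and on the left-hand WT vehicle arrays (array set 1) and pale or blue on the right-hand ones (array set 2).

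Summed up as the median of a class on each array, each member centred on its mean over 28 arrays, neither class stood apart in one group. For the C/D class this median averaged -0.23 ± 0.32 in KO Ang II, -0.02 ± 0.08 in KO vehicle, -0.15 ± 0.17 with Hyd/HCTZ, 0.28 ± 0.45 with 2-HOBA, 0.05 ± 0.32 in WT Ang II and 0.01 ± 0.31 in WT vehicle (SD over arrays). For the H/ACA class it averaged -0.05 ± 0.22, 0.02 ± 0.16, -0.19 ± 0.23, -0.06 ± 0.43, 0.05 ± 0.58 and -0.04 ± 0.83 in the same order of groups. The ranges of all 6 groups overlapped in the H/ACA class, and the widest group there was WT vehicle. Without WT vehicle replicate 2 that group averaged -0.33 ± 0.38 in the H/ACA class and -0.09 ± 0.14 in the C/D class (n = 6), and the widest group in the H/ACA class was then WT Ang II.

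Adding Hyd/HCTZ to Ang II in WT cells went with snoRNA changes in both directions, and was the one comparison of 7 in which any snoRNA was called. Since the median difference of all genes tested in this comparison was 0.32 on the log2 scale, and -0.15 over all 19938 genes without a filter, changes are given relative to the 0.32, as the log2 difference minus that median, unless the deposited scale is named. On that scale limma called 21 of 43 snoRNAs at a Benjamini-Hochberg adjusted p below 0.05, 6 higher and 15 lower, which is 48.8% beside 48.6% of all genes tested (23.7% higher and 25% lower). The share of snoRNAs called was close to the background. The higher calls include Snora41, which passed the filter only through the arrays with Hyd/HCTZ. On the deposited scale 17 were called, 7 higher and 10 lower (39.5%), beside 52.7% of all genes tested (40.8% higher and 11.9% lower). The balance of higher and lower calls depends on the scale and the filter. On the deposited scale, all 51 snoRNAs without a filter gave 11 higher and 10 lower, beside 43.9% of all 19938 genes called in either direction. Array weights gave 10 of each, and the share of all genes is not given for that fit. The C/D median as deposited was -0.10, and 0.04 without a filter. The relative median was -0.42 for C/D snoRNAs (2 called higher, 9 lower) and -0.62 for H/ACA snoRNAs (4 higher, 6 lower). The 6 higher calls and 9 of the lower ones (Snora16a, Snora44, Snora74a, Snord118, Snord35b, Snord42b, Snord49b, Snord55 and Snord82) were made under each of 4 scalings, and the direction of 7 of the 43 snoRNAs differed between scalings.

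Snord14e, which lies in an intron of the heat shock cognate gene Hspa8 and belongs to the Snord14 family needed to make small-subunit rRNA, had the largest rise. It ran from 10.19 to 11.26 (median 10.45) on the 6 arrays with Hyd/HCTZ, and was 5.85, 5.96, 8.26 and 6.15 on the 4 WT Ang II arrays. Every array with Hyd/HCTZ was therefore higher than every Ang II array, although Ang II replicate 3 stood well above the other 3. The difference was 3.64 relative to the median (12.4-fold, adjusted p = 2.93e-07), with a standard error of 0.44 on the log2 scale. The arrays with Hyd/HCTZ were also above all the other 22 arrays, which ran from 4.40 to 8.26. The 2 probe sets annotated to Snord14c, Snord14d and Hspa8 together, which are not counted as members, averaged 10.2 ± 0.34 and 10.2 ± 0.35 with Hyd/HCTZ and 5.82 ± 1.70 and 5.83 ± 1.70 in WT Ang II.

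Of the H/ACA snoRNAs, 4 rose with Hyd/HCTZ: Snora70, Snora31, Snora41 and Snora33. Snora70, in Rpl10, ran from 7.30 to 8.11 (median 7.67) with Hyd/HCTZ, and was 4.36, 4.64, 5.33 and 5.30 in WT Ang II. Snora31, in Tpt1, ran from 8.09 to 9.26 (median 8.20) with Hyd/HCTZ, and was 5.71, 5.19, 6.09 and 5.70 in WT Ang II. In both, the groups did not overlap, and the relative differences were 2.46 (SE 0.25, 5.49-fold, adjusted p = 2.66e-08) for Snora70 and 2.39 (SE 0.26, 5.26-fold, adjusted p = 6.74e-08) for Snora31.

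Snora41, in the elongation factor gene Eef1b2, ran from 5.86 to 6.68 (median 6.22) with Hyd/HCTZ, and was 3.70, 4.72, 4.37 and 3.60 in WT Ang II. Snora33, in Rps12, ran from 7.23 to 8.16 (median 7.64) with Hyd/HCTZ, and was 5.87, 5.94, 6.97 and 5.15 in WT Ang II. Both groups of arrays were again apart, with relative differences of 1.79 (SE 0.37, 3.46-fold, adjusted p = 0.000255) for Snora41 and 1.31 (SE 0.29, 2.47-fold, adjusted p = 0.000514) for Snora33. Snora41 averaged below 5 in the WT Ang II group, the level used as a filter, and its value on WT vehicle replicate 2 (6.31) reached into the range with Hyd/HCTZ. It exceeded 5 on 8 arrays, among them every array with Hyd/HCTZ, and passed the filter only through that group. Its higher call is therefore not independent of the filter. Snord95, in the ribosomal scaffold gene Rack1, was called with the smallest rise, 0.64 (SE 0.23, 1.56-fold, adjusted p = 0.0237), and its groups overlapped (5.30 to 6.41 with Hyd/HCTZ, 4.40 to 5.76 in WT Ang II). The call was lost on leaving out Hyd/HCTZ replicate 4 or 6 or Ang II replicate 1 or 4, with adjusted p from 0.0575 to 0.132.

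**Figure D2:**
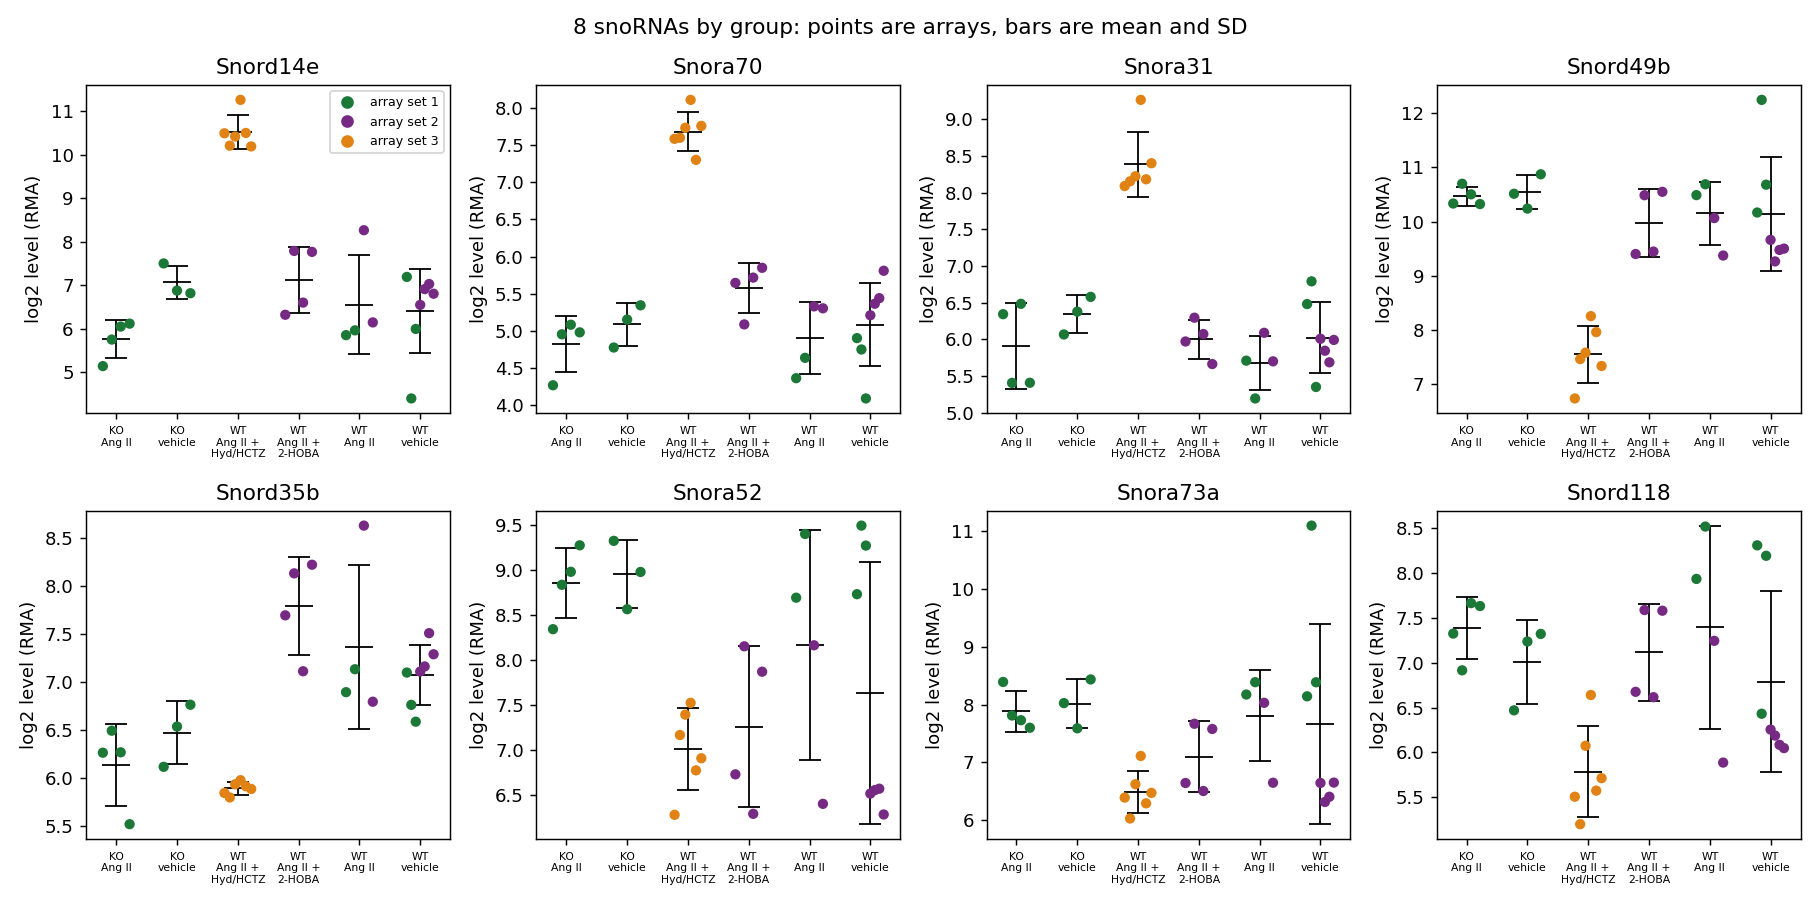
Log2 level of 8 snoRNAs on each array by group, coloured by array set, with the mean and SD of each group. Snord14e, Snora70 and Snora31 are higher with Hyd/HCTZ than on all the other 22 arrays and Snord49b is lower, while Snora52, Snora73a and Snord118 split within WT vehicle by array set.

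Snord49b, a C/D snoRNA of the host gene 2410006H16Rik, had the largest fall. It ran from 6.74 to 8.26 (median 7.53) with Hyd/HCTZ, and was 10.49, 10.69, 10.06 and 9.38 in WT Ang II. No array with Hyd/HCTZ reached the lowest of the other 22, which ran from 9.27 to 12.24. The relative difference was -2.91 (SE 0.40, adjusted p = 1.61e-06), a ratio of 0.133. Its neighbour in the same host, Snord49a, was not called, at -0.18 (adjusted p = 0.585).

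Snord35b, whose levels were the most even of all with Hyd/HCTZ, ran from 5.80 to 5.98 (median 5.90) there, and was 6.89, 7.13, 8.63 and 6.80 in WT Ang II. Its groups did not overlap, and the relative difference was -1.78 (SE 0.27, adjusted p = 5.43e-06). Snord42b, in Rpl23a, ran from 2.89 to 4.00 (median 3.66) with Hyd/HCTZ, and was 5.42, 5.07, 4.93 and 4.80 in WT Ang II, a relative difference of -1.79 (SE 0.24, adjusted p = 1.51e-06). This snoRNA was dim, at or below 5.42 on every array of the series.

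Both snoRNAs of the non-coding host Snhg12 fell. Snora16a ran from 3.28 to 4.07 (median 3.70) with Hyd/HCTZ, and was 5.54, 6.49, 5.38 and 4.39 in WT Ang II, with no overlap and a relative difference of -2.09 (SE 0.34, adjusted p = 2.03e-05). Snora44 ran from 5.83 to 7.27 (median 6.37) with Hyd/HCTZ, and was 8.0, 8.24, 8.15 and 6.36 in WT Ang II. Its groups overlapped through Ang II replicate 4, and its relative difference was -1.55 (SE 0.40, adjusted p = 0.00216).

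Snord118, Snora73a and Snora74a were called lower against all 4 WT Ang II arrays, but not against the 2 of array set 2 alone. Snord118, needed to process the large-subunit rRNAs, ran from 5.20 to 6.64 (median 5.64) with Hyd/HCTZ, and was 7.94, 8.52, 7.24 and 5.89 in WT Ang II, a relative difference of -1.93 (SE 0.44, adjusted p = 0.000722) with overlap through Ang II replicate 4. Snora73a, a long H/ACA snoRNA needed to make small-subunit rRNA, ran from 6.03 to 7.11 (median 6.43) with Hyd/HCTZ, and was 8.17, 8.39, 8.03 and 6.65 in WT Ang II. Its relative difference was -1.64 (SE 0.57, adjusted p = 0.019), and the call was lost without Ang II replicate 1 (-1.50, adjusted p = 0.0604) or 2 (-1.42, adjusted p = 0.0717). Its copy in the same host, Snora73b, was not called (-1.22, adjusted p = 0.109), and probes may not tell such related copies apart. Snora74a ran from 3.82 to 4.96 (median 4.39) with Hyd/HCTZ, and was 6.39, 6.21, 5.90 and 5.10 in WT Ang II, a relative difference of -1.80 (SE 0.41, adjusted p = 0.000749) with no overlap.

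The other 7 lower calls ran from -1.47 (Snora52) to -0.42 (Snord8), with Snord82, Snord55, Snord15a, Snora3 and Snord53 between them. Over all 43, the 2 groups did not overlap for 5 snoRNAs that were higher, beside 34.4% of all genes tested, and for 6 that were lower, beside 10%. Against the other 22 arrays of the series, 4 snoRNAs lay wholly above (Snord14e, Snora70, Snora31 and Snora33), beside 20.2% of all genes tested, and 1 wholly below (Snord49b), beside 1.84%. Snord104 was not called. It averaged 10.13 ± 0.14 with Hyd/HCTZ and 9.95 ± 0.54 in WT Ang II, a relative difference of -0.14 (95% interval of the deposited difference -0.25 to 0.62).

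**Figure D3:**
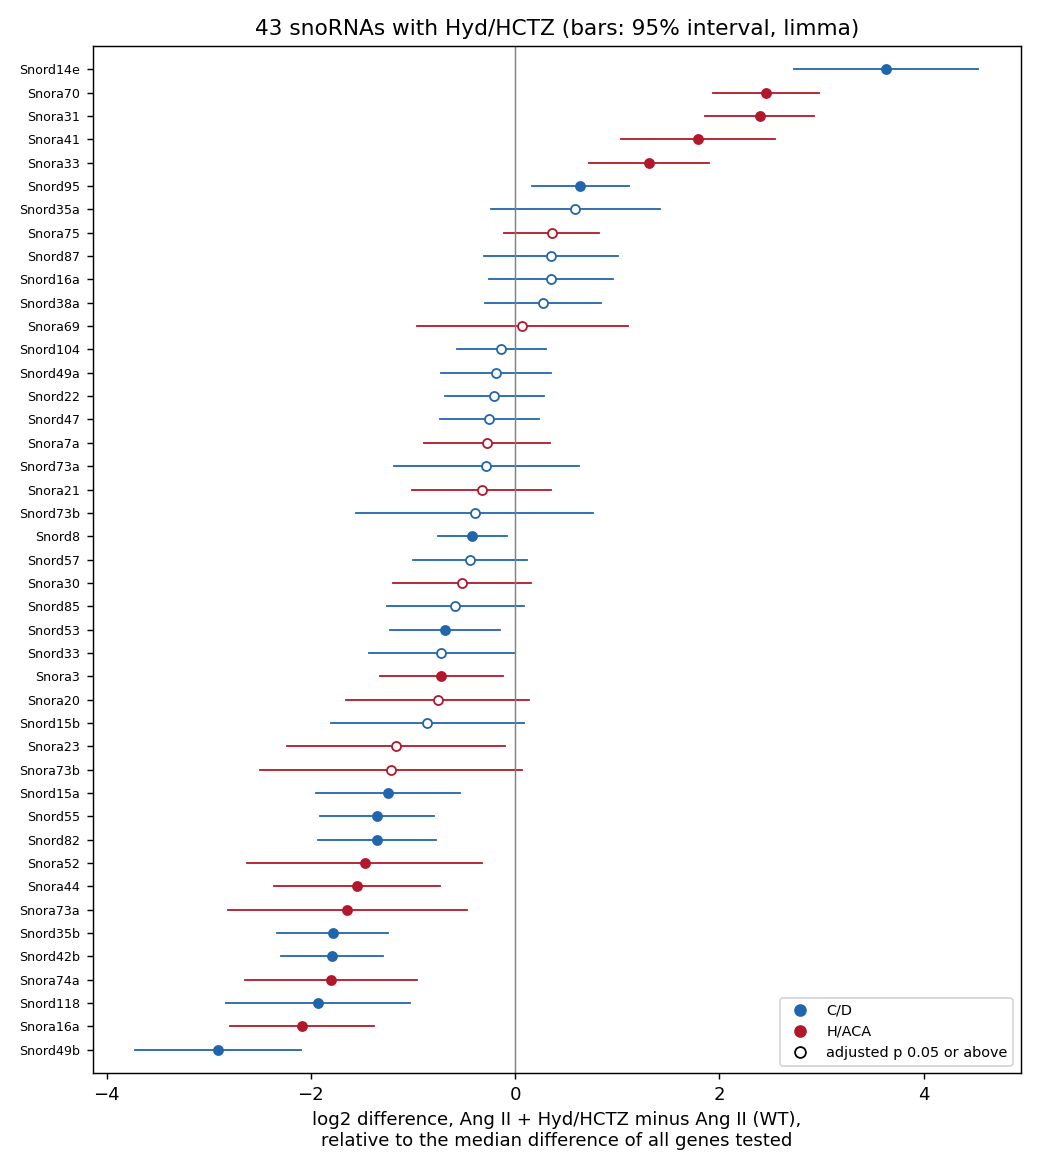
Log2 difference of each of the 43 snoRNAs between WT Ang II plus Hyd/HCTZ (n = 6) and WT Ang II (n = 4), relative to the median difference of all genes tested, with its 95% interval from limma. Filled points passed an adjusted p below 0.05: 6 snoRNAs on the right, led by Snord14e at 3.64, and 15 on the left, led by Snord49b at -2.91.

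The comparison was repeated with only the 2 WT Ang II arrays of array set 2 (replicates 3 and 4), a choice made after the data were seen, because the Ang II group spans array sets 1 and 2. Then 5 snoRNAs were called higher and 8 lower, all of them among those above, beside 13.6% and 11.5% of all genes tested. The calls of Snord14e (3.06, adjusted p = 0.00019), Snora70, Snora31, Snora41 and Snora33 held, as did those of Snord49b (-2.41, adjusted p = 0.000958), Snord35b, Snord42b, Snora16a, Snord55, Snord82, Snora3 and Snord8. Snord95 and 7 lower calls were lost: Snord118 (-1.03, adjusted p = 0.138), Snora44 (-1.05, adjusted p = 0.127), Snora73a (-1.10, adjusted p = 0.28), Snora74a (-1.33, adjusted p = 0.0626), Snora52 (-0.52, adjusted p = 0.607), Snord15a (-0.71, adjusted p = 0.202) and Snord53 (-0.57, adjusted p = 0.2). With 2 arrays in place of 4 fewer genes passed overall.

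Host genes of these snoRNAs did not change by similar amounts. A host was tested for 23 snoRNAs (20 host genes), and host differences ran from -0.60 to 0.99 on the relative scale while those of the snoRNAs ran from -1.79 to 3.64. The host calls below stand beside 23.7% of all genes tested called higher and 25% lower on that scale. Of 5 snoRNAs called higher in this set, the host was called higher for 1 (Rpl10, 0.63, beside Snora70), lower for 2 (Tpt1, -0.55, beside Snora31, and Rps12, -0.54, beside Snora33) and not called for 2 (Hspa8, 0.21, adjusted p = 0.366, beside Snord14e, and Eef1b2, 0.31, adjusted p = 0.147, beside Snora41). As deposited, both of these hosts were called higher, Hspa8 by 0.53 (adjusted p = 0.0211) and Eef1b2 by 0.63 (adjusted p = 0.00415). The lower calls of hosts hold on the relative scale only, since no host was called lower as deposited. Of all genes tested, 40.8% were called higher and 11.9% lower as deposited. Of 7 snoRNAs called lower, the host was called lower for 1 (Rpl27a, -0.42, beside Snora3, -0.72) and not called for 6. Snord42b fell by 1.79 beside -0.04 for Rpl23a (adjusted p = 0.802), and Snord82 fell by 1.35 beside -0.20 for nucleolin (Ncl, adjusted p = 0.348). Ipo7, an importin, rose by 0.99 (adjusted p = 0.00422) while its snoRNA Snora23 stood at -1.17 (adjusted p = 0.0646), and Tcp1, a chaperonin subunit, rose by 0.93 (adjusted p = 0.00441) while Snora20 stood at -0.76 (adjusted p = 0.152). Gas5, a non-coding host known to accumulate when growth stops, and its snoRNA Snord47 were close to each other, at -0.23 and -0.25, and neither was called. Across the 23 pairs, which share arrays and in part hosts, Pearson's r between host and snoRNA was 0.04. A probe set inside an intron reads the mature snoRNA and the unspliced host transcript alike.

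**Figure D4:**
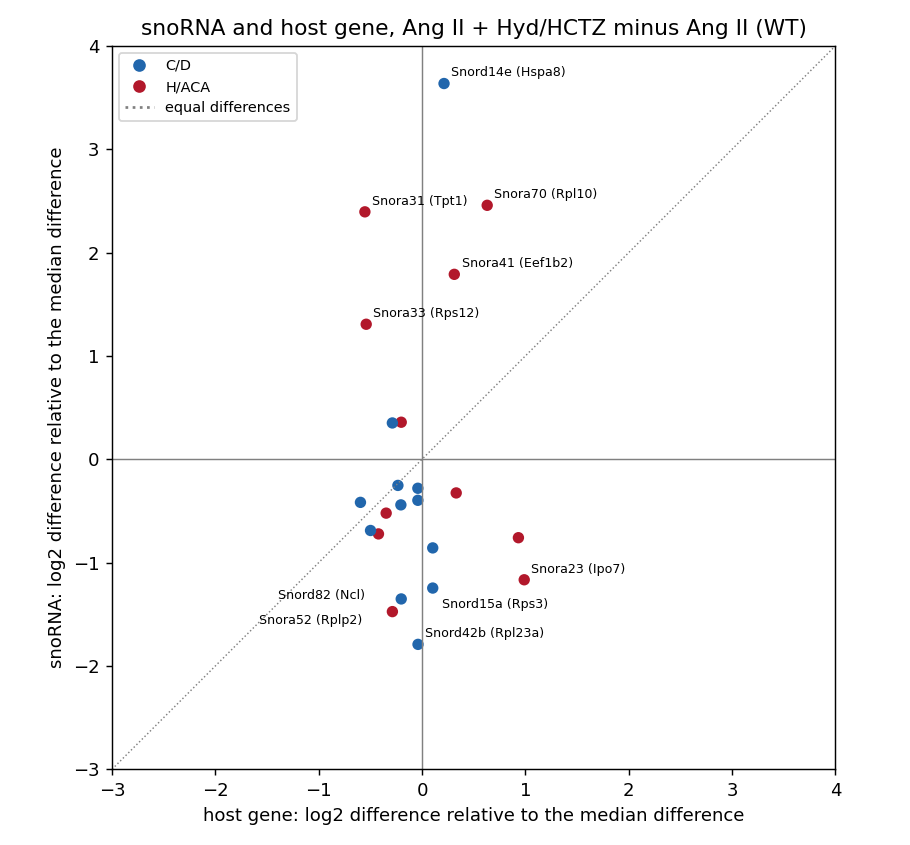
Relative log2 difference of 23 snoRNAs (vertical) against that of the host gene (horizontal) between WT Ang II plus Hyd/HCTZ and WT Ang II, with the dotted line at equal differences. Hosts stay between -0.60 and 0.99 while snoRNAs spread from -1.79 (Snord42b) to 3.64 (Snord14e).

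Among proteins that bind snoRNAs, several transcripts rose with Hyd/HCTZ and no tested member of the 3 lists fell, beside 23.7% of all genes tested called higher and 25% lower. Of the C/D core, fibrillarin (Fbl, the methyltransferase) rose by 1.30 (adjusted p = 0.000107) and Snu13 by 1.09 (adjusted p = 0.000273) relative to the median, so that 2 of 4 passed, while Nop58 stood at 0.67 (adjusted p = 0.0614) and Nop56 at -0.20 (adjusted p = 0.366). Of the H/ACA core, Nhp2 rose by 1.01 (adjusted p = 0.000929) and Nop10 by 0.84 (adjusted p = 0.0103), so that 2 of 4 passed, while dyskerin (Dkc1) stood at 0.30 (adjusted p = 0.332) and Gar1 at 0.28 (adjusted p = 0.0906). Of the 10 assembly factors tested, 4 rose (Pih1d1 0.96, Tgs1 0.82, Ruvbl1 0.54 and Znhit3 0.49). Over the 25 genes of rRNA synthesis and processing, 5 rose and 3 fell on the relative scale, beside 23.7% and 25% of all genes tested. As deposited 9 rose and none fell, beside 40.8% and 11.9%. Both counts of rises are a smaller share of the 25 than the share of all genes.

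Other small RNAs of the nucleus and nucleolus fell: 10 of the 11 tested were called lower, beside 25% of all genes tested. As deposited 10 were also called lower, beside 11.9%. The list's relative median was -1.66, beside 0 for all genes. Rnu3a, which starts cleavage of the rRNA precursor, fell by 3.57 (adjusted p = 9.39e-07) and the RNase MRP RNA Rmrp by 3.14 (adjusted p = 7.49e-07). Terc, the H/ACA-type RNA of telomerase, fell by 1.45 (adjusted p = 1.29e-06) and the Cajal body RNAs Scarna17 and Scarna13 by 2.01 and 1.58. The exception was Vaultrc5, at -0.08 (adjusted p = 0.819). Of 7 genes on a list of mostly non-coding hosts, Gas5 among them, Snhg17 and Snhg15 fell (-1.29 and -0.99, adjusted p = 0.00219 and 0.037) and the other 5 were not called. On that scale 25% of all genes tested were called lower. As deposited 3 of the 7 were called higher and 1 lower, beside 40.8% and 11.9% of all genes tested.

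Markers of cell types moved in the same comparison, in which 23.7% of all genes tested were called higher and 25% lower on the relative scale. Averaged over a list on each array, B cell markers (7 measured) lay between 5.78 and 6.99 with Hyd/HCTZ and between 8.10 and 9.04 in WT Ang II, and all 7 fell. T and NK cell markers lay between 5.08 and 5.98 with Hyd/HCTZ and between 5.88 and 7.05 in WT Ang II (6 of 7 fell), erythroid markers between 3.81 and 4.40 and between 4.83 and 5.93 (6 of 6 tested fell), and neutrophil markers between 4.93 and 6.16 and between 5.98 and 7.37 (5 of 6 tested fell). As deposited, 3 T and NK cell markers and 3 neutrophil markers were called lower, beside 11.9% of all genes tested. Dendritic cell markers lay between 8.86 and 9.08 with Hyd/HCTZ and between 7.67 and 8.17 in WT Ang II (8 of 13 rose), and red pulp macrophage markers between 7.65 and 9.12 and between 6.56 and 7.62 (6 of 8 rose). No array had a marker list at 0. The part of these shifts in the snoRNA differences was not tested, and in bulk samples fewer cells of a type and less RNA per cell cannot be told apart.

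Adding 2-HOBA to Ang II in WT cells gave no called snoRNA, beside 0% of all genes tested (limma). Before adjustment, 3 of 43 snoRNAs had a p below 0.05, beside 379 of 10452 genes tested. The 3 were Snora70, Snora16a and Snord95. No snoRNA had groups apart, beside 1.8% of all genes tested upward and 1.06% downward. Snora70 was 5.65, 5.09, 5.72 and 5.85 with 2-HOBA and 4.36, 4.64, 5.33 and 5.30 in WT Ang II, a difference of 0.67 (SE 0.28, adjusted p = 0.977). Snora16a was 4.32, 5.14, 4.31 and 4.87 with 2-HOBA and 5.54, 6.49, 5.38 and 4.39 in WT Ang II, a difference of -0.79 (SE 0.38, adjusted p = 0.977). Snord95 was 5.15, 5.81, 5.44 and 5.73 with 2-HOBA and 4.40, 5.07, 5.76 and 4.79 in WT Ang II, a difference of 0.53 (SE 0.25, adjusted p = 0.977). The class medians were 0.22 for C/D and -0.03 for H/ACA, beside 0.05 for all genes. This comparison and the one with Hyd/HCTZ share the 4 WT Ang II arrays, so their values are given side by side only.

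Ang II against vehicle in WT cells gave no called snoRNA, beside 0% of all genes tested (limma). The unadjusted p was below 0.05 for 1 of 43 snoRNAs, beside 266 of 10452 genes tested. That 1 was Snord42b, with 5.42, 5.07, 4.93 and 4.80 in Ang II, against 4.01 to 4.90 (median 4.43) over the 7 vehicle arrays, a difference of 0.62 (SE 0.24, adjusted p = 1). Its groups overlapped by a small margin, and no snoRNA had groups apart, beside 0.0861% of all genes tested upward and 0.144% downward. Snora33 followed at 0.55 (95% interval -0.02 to 1.12) and Snord118 at 0.61 (-0.26 to 1.48). The class medians were -0.02 for C/D and 0 for H/ACA to 2 decimals, and without WT vehicle replicate 2 they were 0.19 and 0.26.

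Ang II against vehicle in KO cells gave no called snoRNA either, beside 0% of all genes tested (limma). An unadjusted p below 0.05 was found for 3 of 43 snoRNAs, beside 296 of 10452 genes tested. In these 3, each of the 4 Ang II arrays was lower than each of the 3 vehicle arrays, which held for 2.58% of all genes tested (2.2% the other way). Snora33 was 5.33, 4.69, 5.68 and 5.59 in KO Ang II and 6.44, 6.26 and 6.09 in KO vehicle, a difference of -0.94 (SE 0.34, adjusted p = 1). Snord14e was 5.14, 5.75, 6.05 and 6.12 in KO Ang II and 7.50, 6.88 and 6.82 in KO vehicle, a difference of -1.30 (SE 0.52, adjusted p = 1). Snord38a was 4.71, 4.15, 5.12 and 4.42 in KO Ang II and 5.25, 5.36 and 5.43 in KO vehicle, a difference of -0.75 (SE 0.33, adjusted p = 1). All 7 KO arrays belong to array set 1, so this comparison lies within 1 set.

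The test of whether the Ang II difference itself differed between KO and WT called no snoRNA, beside 0% of all genes tested (limma). Before adjustment, 3 of 43 snoRNAs had a p below 0.05, beside 257 of 10452 genes tested. The smallest p belonged to Snora33, at -1.49 (SE 0.44, unadjusted p = 0.002), which was 0.94 lower in KO Ang II than in KO vehicle and 0.55 higher in WT Ang II than in WT vehicle. Snord14e stood at -1.45 (SE 0.67) and Snord42b at -0.83 (SE 0.37). Within array set 1 Snora33 stood at -1.25. These values rest in part on WT vehicle replicate 2, which is also in set 1. It was 6.29 for Snora33, beside 5.08 to 5.51 on the other WT vehicle arrays. For Snord14e it was 4.40, beside 6.00 to 7.19. The size of these differences without that array is not given here.

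KO against WT with vehicle gave no called snoRNA, beside 0.00957% of all genes tested (limma). The unadjusted p was below 0.05 for 4 of 43 snoRNAs, beside 657 of 10452 genes tested. Snora33 was 6.44, 6.26 and 6.09 in KO vehicle, against 5.08 to 6.29 (median 5.36) in WT vehicle, a difference of 0.83 (SE 0.31, adjusted p = 0.641). Snora44 was 9.02, 8.45 and 8.55 in KO vehicle, against 6.79 to 9.44 (median 7.34) in WT vehicle, a difference of 0.96 (SE 0.43, adjusted p = 0.761). Snora52 was 9.33, 8.57 and 8.98 in KO vehicle, against 6.29 to 9.50 (median 6.57) in WT vehicle, a difference of 1.32 (SE 0.60, adjusted p = 0.767). In each the KO values lay inside or across the WT range, and no snoRNA had groups apart, beside 0.947% of all genes tested upward and 0.737% downward. Without WT vehicle replicate 2, a choice made after the data were seen, every KO array was higher than every WT array for 3 snoRNAs (Snora33, Snora44 and Snord73b), beside 1.48% of all genes tested, and lower for none, beside 5.48%. Snora33 then lay between 5.08 and 5.51 in WT vehicle, all below the KO values. Within array set 1 the difference was 0.67 for Snora33, 0.03 for Snora44 and -0.21 for Snora52. Without WT vehicle replicate 2 the difference was 0.98, 1.25 and 1.63 (adjusted p = 0.092, 0.0878 and 0.145). Weighting arrays by quality called 10 snoRNAs, 8 higher and 2 lower, beside 1437 of all 10452 genes tested.

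KO against WT with Ang II gave no called snoRNA, beside 0.0478% of all genes tested, 0.0383% lower, or 0.0383% and 0.0287% relative to the median difference (limma). An unadjusted p below 0.05 was found for 6 of 43 snoRNAs, beside 714 of 10452 genes tested. Snord35b was 6.27, 6.49, 6.27 and 5.52 in KO Ang II and 6.89, 7.13, 8.63 and 6.80 in WT Ang II. The groups did not overlap, which held downward for 2 snoRNAs and for 1.94% of all genes tested, and the difference was -1.22 (SE 0.29, adjusted p = 0.146). With vehicle Snord35b was 6.12, 6.54 and 6.76 in KO, against 6.59 to 7.51 (median 7.11) in WT, a difference of -0.60 (SE 0.28, adjusted p = 0.784). Snora75, in the nucleolin gene, was the other, with 5.89, 5.81, 5.60 and 5.39 in KO Ang II, against 6.47, 6.61, 5.90 and 6.04 in WT Ang II (-0.59, SE 0.25, adjusted p = 0.616). Snora3, which lies in Rpl27a, stood at -0.80 (SE 0.32, adjusted p = 0.584) with overlap. Upward, 1 snoRNA had groups apart, beside 1.67% of all genes tested: Snora44, with 8.68, 8.44, 8.42 and 8.40 in KO Ang II and 8.0, 8.24, 8.15 and 6.36 in WT Ang II (0.80, SE 0.44, adjusted p = 0.78). With array set as a block Snord35b stood at -0.95 (adjusted p = 0.119).

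Array set went with a difference in part of the H/ACA class and a few C/D members. Within the arrays labelled WT vehicle, 14 of 43 snoRNAs averaged more than 1 higher on the 3 arrays of set 1 than on the 4 arrays of set 2, beside 0.832% of all genes tested. All genes tested leaned the other way, since 11.9% differed by over 1 in either direction. Without replicate 2, the array whose Cybb level goes against its label, the snoRNAs over 1 were 8, beside 0.478% (3.97% either way): Snora52, Snord118, Snora73b, Snora73a, Snora74a, Snora23, Snora44 and Snora16a. Snora52 was 8.73, 9.50 and 9.28 on the set 1 arrays and 6.52, 6.56, 6.57 and 6.29 on the set 2 arrays. Snora73a was 8.14, 11.10 and 8.39 on the set 1 arrays and 6.64, 6.31, 6.40 and 6.65 on the set 2 arrays. There was no overlap in either, and the gap in Snora52, 2.52 without replicate 2, was wider than its difference in any of the 7 comparisons. Snord35b and Snora70 ran the other way, with every set 1 array lower than every set 2 array, beside 3751 of 10452 genes tested. Without replicate 2 this also held for Snord42b, Snord49a and Snord73a, beside 4032 of 10452 genes tested. Both are smaller shares of the snoRNAs than of all genes. Every set 1 array was higher for 12 of 43 snoRNAs with and without replicate 2, beside 788 and 1126 genes. Without replicate 2, Snord73a was the 1 snoRNA lower by over 1 (-1.03).

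The 2 WT Ang II arrays of each set did not split as cleanly. Snora52 was 8.70 and 9.40 on set 1 and 8.17 and 6.41 on set 2, and Snora23 was 9.22 and 9.94 on set 1 and 9.65 and 7.38 on set 2, so that replicate 4 was the lowest in both and replicate 3 lay closer to the set 1 arrays than to it. With 2-HOBA, where all arrays belong to set 2, Snora23 was 9.56 and 9.70 on replicates 2 and 4 and 7.97 and 7.78 on replicates 1 and 3. The same 2 replicates were the higher ones for Snora52, Snora73a, Snora44, Snord49b and Snord118. On the component that made the sets, replicates 2 and 4 lay nearer set 1, at -5.91 and -5.07, beside 5.38 and 4.88 for replicates 1 and 3. WT Ang II went the other way, with replicate 3 farther from set 1 (13.6) than replicate 4 (5.03). A link with that component was not tested. On all 7 KO arrays Snora52 lay between 8.35 and 9.33 and Snora44 between 8.40 and 9.02. Array set was read from control-like probe sets, and no label names a batch.

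Some members of that pattern tracked each other closely across arrays. The pattern was seen on the same arrays and the pairs named first are among the highest of all pairs. Their correlations are therefore a description and no separate support. As deviations from the group means over 28 arrays, which share labelling and scaling, Snora73a and Snora73b correlated at 0.98. Snora23 and Snora44 correlated at 0.92, Snora73a and Snord49b at 0.91 and Snora23 and Snora52 at 0.88. Without WT vehicle replicate 2 these values were 0.94, 0.87, 0.82 and 0.86 in the same order. Snora73a and Snora73b share the host Snhg3, but Snora23 (Ipo7), Snora44 (Snhg12) and Snord49b (2410006H16Rik) do not share one. A shared host did not go with a high correlation in each case: Snora16a and Snora44 in Snhg12 correlated at 0.79, Snord33 and Snord35a in Rpl13a at 0.54, Snord49a and Snord49b at 0.44 and Snora75 and Snord82 in Ncl at 0.17. Without WT vehicle replicate 2 these pairs correlated at 0.72, 0.53, 0.17 and 0.09 in the same order.

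The snoRNAs of Rpl13a showed no called change in any comparison among the members, Snord33 and Snord35a. Snord33, whose 5′ end is printed above, averaged 5.81 ± 0.49 in KO Ang II, 5.56 ± 0.35 in KO vehicle, 5.54 ± 0.28 with Hyd/HCTZ, 5.91 ± 0.59 with 2-HOBA, 5.94 ± 0.81 in WT Ang II and 5.73 ± 0.76 in WT vehicle. Snord35a averaged 4.40 ± 1.19, 4.25 ± 0.51, 5.36 ± 0.30, 5.08 ± 0.64, 4.45 ± 0.95 and 4.51 ± 0.54 in the same order, around the level used as a filter. The probe set annotated to Snord34 and Rpl13a together averaged 5.98 ± 0.22 with Hyd/HCTZ and 8.49 ± 0.69 in WT Ang II, and the one annotated to Snord32a and Rpl13a averaged 6.68 ± 0.37 and 7.36 ± 0.42. Those 2 carry several symbols and were not tested. The arrays read total RNA, so the place of a snoRNA within the cell was not measured.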

How the data were processed

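The authors deposited log2 values from RMA, and Partek 6.6 is named per the submitters' processing notes, with settings not stated there. Values ran from 0.902 to 14.3 over 35556 probe sets. Precision is limited by how many arrays there are. Gene names came from the platform's annotation table in GEO (21789 with 1 symbol, 1621 with several, 12146 with none). Where a gene had several probe sets the one with the highest mean was kept (5 snoRNAs have 2). Groups follow the descriptions, also where a KO title wrote Ang I.

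limma 3.58.1 in R 4.3.3 fitted 6 group means over all 28 arrays, with eBayes and Benjamini-Hochberg adjustment over 10452 genes, two-sided, and was tested on simulated data. Adjusted p-values in the text come from this fit. With Hyd/HCTZ each gene was also tested against the median difference. Errors after ± are SDs.

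Members, gene lists and the rule for names were chosen with earlier results of these data known. Named are up to 8 called rises and 8 called falls per comparison, or the 3 smallest p values, the 5 brightest of each class, and the Rpl13a, Hspa8 and Gas5 snoRNAs, Snord118, Snora73a and Snora73b. Members outside this rule are named as singled out after their values were seen. Hosts come from spans in the RefSeq table (GRCm38.p6), in which no strand was used. Alternatives were other filters, scalings and eBayes options, array weights, all probe sets, the replicate number or array set as a block, and leaving out each array.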

Additional observations from a re-analysis of the deposited data

Results flagged for a closer look

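Single arrays stood apart from the rest of their group in 14 of 135 groups of 4 to 7 arrays examined by Dixon's test at the 95% level, which chance alone does in about 1 of 20 groups. WT vehicle replicate 2 accounted for 6 of them. There the median of the centred C/D snoRNAs was 0.6621 against -0.2149 to 0.0993 on the other 6 arrays, and that of the H/ACA snoRNAs was 1.6593 against -0.6269 to 0.2094. On the same array Snora33 (6.2923), Snora41 (6.3142) and Snord82 (8.7451) were the highest and Snord14e (4.3984) the lowest of the group.

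With Hyd/HCTZ, replicate 4 was the highest for Snord14e (11.2596 against 10.19 to 10.50), Snora31 (9.2633 against 8.09 to 8.40) and Snora23 (8.9964 against 7.91 to 8.28), and replicate 1 was the lowest for Snord33 (4.9848 against 5.54 to 5.74). In WT Ang II, replicate 3 was the highest for Snord14e (8.2642 against 5.85 to 6.15) and replicate 4 the lowest for Snora44 (6.3566 against 8.0 to 8.24). In KO Ang II, replicate 1 was the highest for Snora44 (8.6803 against 8.40 to 8.44) and the lowest for Snora70 (4.2659 against 4.95 to 5.08).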

How the results depend on the processing

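With Hyd/HCTZ, the count of 17 snoRNAs called on the deposited scale was 10 of the 18 that passed a filter above 7 and 15 to 21 when 1 array was left out. Counts in this paragraph are given without the share of all genes called in each fit. They show only how snoRNA calls depend on the setting. The C/D median of -0.10 was -0.54 with a filter above 7, -0.50 with a common array median and -0.42 relative to the median difference, and the H/ACA median of -0.30 was -0.85 with a filter above 7. Leaving out 1 array gave -0.18 to -0.06 for C/D and -0.44 to 0.04 for H/ACA. Snora73a lost its call without a filter (-1.17, adjusted p = 0.0972), and Snord95 lost it without Hyd/HCTZ replicate 4 (0.52) or 6 (0.56) or Ang II replicate 1 (0.46) or 4 (0.53). With the 2 Ang II arrays of array set 2 alone, chosen after the data were seen, 12 were called on the deposited scale (6 higher, 6 lower). No fit with array set as a block could be made there.

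For KO against WT with vehicle, array weights called 10 snoRNAs instead of 0 and brought Snora33 (0.97), Snora44 (1.44) and Snora52 (2.12) under the threshold. The number of all genes called in that fit is given with that comparison above. Snora52 turned to -0.016 with array set as a block and -0.21 within array set 1. The C/D median of the difference between the Ang II effects, -0.09, was 0.28 within array set 1. Both values within array set 1 include WT vehicle replicate 2. The causes were not tested. No array left out on its own gave a called snoRNA in the 6 other comparisons.

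Replicate numbers did not pair the arrays (correlations of deviations -0.35 to 0.37). With the replicate block 16 snoRNAs were called with Hyd/HCTZ and 0 in the other comparisons where it was fitted, and Snora73a lost its call (-1.19, adjusted p = 0.0849). The share of all genes called with that block is not given.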

Other observations

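Probe sets that name a snoRNA together with other genes are not members, and 41 were found, 24 of them for Snord116. Beside those given above, the probe set of Rpl12 and Snora65 averaged 6.56 ± 0.26 with Hyd/HCTZ and 4.84 ± 0.54 in WT Ang II, and that of Snord14a and Rps13 averaged 6.42 ± 0.32 with Hyd/HCTZ and 5.26 ± 1.02 in WT Ang II. The probe set of Snora43 and Snhg7 averaged 5.53 ± 0.16 with Hyd/HCTZ and 6.72 ± 0.45 in WT Ang II. These probe sets were described and not tested.

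Of the 8 snoRNAs that did not pass the level of 5, Snord96a was the one with the widest difference between Hyd/HCTZ and WT Ang II, at 1.09 (SE 0.20) in the fit without a filter, and its highest value on any array was 5.58. It shares the host Rack1 with Snord95.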
